A study of Mus musculus with 6 samples.

Results

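The genes described are 36 enzymes of cholesterol and fatty acid synthesis, their regulators and sterol carriers, of 21900 protein-coding mouse genes in RefSeq. A peak was assigned to one of them when its Gene Name in a deposited peak list was that gene, which gave 120 of the 97783 peaks of 6 lists. The genes were selected on their promoter peaks and peak scores in these same lists, so counts and ranks over them describe the lists and were given no test. A promoter peak was one within 1000 bp of the start site used by the deposited annotation.

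The lists came from chromatin immunoprecipitation and sequencing (ChIP-seq), which maps where a protein sits on the genome, in primary neural stem cells of the newborn mouse cortex grown with EGF and bFGF. Chd4, the ATPase of the NuRD chromatin remodelling complex, was the target in 4 libraries, and Seh1, a subunit of the outer ring that scaffolds nuclear pores, in the other 2. Chd4 was mapped in wild type cells named siSeh1 and in wild type cells named siSCR, both in growth medium; what the names stand for is not explained in the labels. Chd4 was also mapped in iKO cells, labelled mutant and given 4-OH-TAM in their medium, and in wild type Ctrl cells in growth medium. The Seh1-flag library was titled iKO and had received 4-OH-TAM, but its genotype label reads wild type, and its header name has "oe" before seh1. The Seh1 Ctrl library came from wild type cells in growth medium. Neither the gene that is mutant in the iKO cells, nor the driver of any Cre, nor the number of animals is stated in the sources used. Each group was 1 library with no replicate, so no difference between lists could be set against a spread between samples, and no p-value was computed.

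Cholesterol is built from acetyl-CoA through mevalonate, squalene and lanosterol. The transcription factors SREBP-1 and SREBP-2, made from Srebf1 and Srebf2, switch on these enzymes and those of fatty acid synthesis when sterols are low. SCAP carries the SREBPs to the Golgi for cleavage, and the INSIG proteins hold SCAP in the endoplasmic reticulum when sterols are plentiful. At target promoters SREBPs act with the factors NF-Y and Sp1. The brain makes its own cholesterol, because lipoprotein cholesterol does not cross the blood-brain barrier.

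The 4 Chd4 lists differed greatly in length, with 26935 peaks in siSeh1 against 2606 in siSCR, and 21294 in iKO against 1154 in Ctrl. That is a length ratio of 10.3 for siSeh1 over siSCR and of 18.5 for iKO over Ctrl. Sequencing depth is unknown, because the lists give no read totals. The part of list length in the counts was examined by trimming the longer lists, as given after the counts. Of 9 neural stem cell markers, Hes1 and Sox2 had a promoter peak in siSeh1, Hes1 had one in iKO, and none had one in the other Chd4 lists. Of 5 oligodendrocyte markers, Olig1, Olig2 and Sox10 had one in siSeh1 and Olig1 in iKO, while the 4 neuron, 3 astrocyte and 5 microglia and endothelium markers had none in any Chd4 list. All protein-coding genes had one at 11.8% in siSeh1 and 5.18% in iKO. Peaks do not measure expression, so these markers do not check the cell type. No list held a promoter peak at Seh1l or Chd4.

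The promoters of 5 of the 36 genes had a Chd4 peak in the siSCR list, and the same 5 had one in siSeh1. Of all protein-coding genes with a siSCR promoter peak, 81.8% had one in siSeh1. The 5 genes are Hmgcs1, Msmo1, Insig1, Srebf2 and Fads2. The 250 bases before their start are shown because no other gene of the 36 had a promoter peak in siSCR. The sequences are RefSeq's, on GRCm38.p6. The Hmgcs1 stretch is chr13:119690101-119690350 on the plus strand, Msmo1 is chr8:64733579-64733828 on the minus strand, and Insig1 is chr5:28071162-28071411 on the plus strand. The Srebf2 stretch is chr15:82147019-82147268 on the plus strand and Fads2 is chr19:10101504-10101753 on the minus strand. Each is written 5′ to 3′ along its gene, and capitals mark CCAAT, the box read by NF-Y, on either strand (ATTGG is its reverse) and TCACNCCAC, the sterol element read by SREBP.
Hmgcs1: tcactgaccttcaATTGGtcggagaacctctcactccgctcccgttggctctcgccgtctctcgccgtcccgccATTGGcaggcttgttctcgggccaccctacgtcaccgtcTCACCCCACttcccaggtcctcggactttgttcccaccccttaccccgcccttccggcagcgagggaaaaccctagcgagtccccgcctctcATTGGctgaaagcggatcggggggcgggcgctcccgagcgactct
Msmo1: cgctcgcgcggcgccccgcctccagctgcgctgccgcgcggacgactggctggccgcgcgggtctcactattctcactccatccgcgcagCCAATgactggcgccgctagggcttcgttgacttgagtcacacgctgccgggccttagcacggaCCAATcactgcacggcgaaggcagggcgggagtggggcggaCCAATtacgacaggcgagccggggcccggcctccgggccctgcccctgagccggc
Insig1: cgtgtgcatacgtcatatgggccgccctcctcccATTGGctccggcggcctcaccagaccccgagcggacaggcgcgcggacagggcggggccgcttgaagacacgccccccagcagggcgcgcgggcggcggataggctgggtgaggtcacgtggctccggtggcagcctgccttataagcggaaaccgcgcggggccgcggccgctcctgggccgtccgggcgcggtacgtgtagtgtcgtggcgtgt
Srebf2: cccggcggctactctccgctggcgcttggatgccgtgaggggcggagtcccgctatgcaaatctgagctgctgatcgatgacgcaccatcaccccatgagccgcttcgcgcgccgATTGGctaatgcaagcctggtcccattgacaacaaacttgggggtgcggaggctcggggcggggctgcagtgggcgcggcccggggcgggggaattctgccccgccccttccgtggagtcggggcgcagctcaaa
Fads2: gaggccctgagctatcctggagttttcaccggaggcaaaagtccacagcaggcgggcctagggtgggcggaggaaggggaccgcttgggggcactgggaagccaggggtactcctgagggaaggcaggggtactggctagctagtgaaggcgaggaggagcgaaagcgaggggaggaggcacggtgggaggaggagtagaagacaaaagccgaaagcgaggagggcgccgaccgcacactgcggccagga
Hmgcs1 and Msmo1 each had 3 CCAAT boxes in these bases, Insig1 and Srebf2 had 1 each, and Fads2 had 0.

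Chd4 promoter peaks were listed at 25 of the 36 genes in siSeh1 (69.4%), against 5 in siSCR (13.9%). Over all protein-coding genes the shares were 11.8% in siSeh1 and 1.63% in siSCR. In iKO 14 of the 36 had one (38.9%), against 0 in Ctrl, where all protein-coding genes gave 5.18% in iKO and 0.0183% in Ctrl. The Ctrl list held only 4 protein-coding promoters in all, which is the most that could have been shared with it. In the siSeh1 list 20 of the 36 were gained relative to siSCR (55.6%, against 10.5% of all protein-coding genes) and 0 were lost (background 0.297%). In iKO all 14 were gained relative to Ctrl (background 5.18%).

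With the siSeh1 list reduced to its 2606 highest-scored peaks, the length of the siSCR list, 18 of the 36 genes kept a promoter peak, against 5.96% of all protein-coding genes, and 13 were gained, against 4.7%. With the iKO list reduced to its 1154 highest-scored peaks, 10 of the 36 kept one, against 2.04% of all protein-coding genes. These counts rest on the same peaks that led to the choice of the genes, and nothing is read from their distance to the background.

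**Figure D1:**
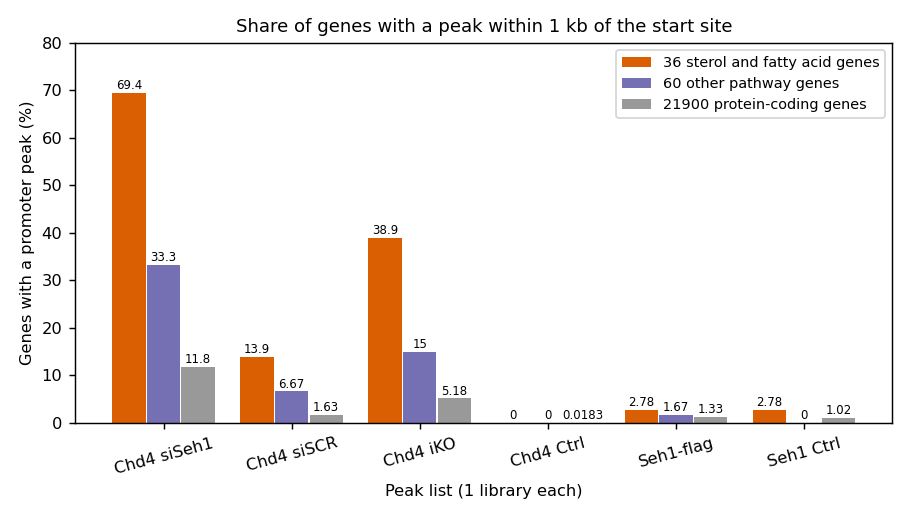
Share of genes with a peak within 1000 bp of the start (y axis, %) in each of the 4 Chd4 and 2 Seh1 lists, for the 36 sterol and fatty acid genes, the 60 other lipid pathway genes and all 21900 protein-coding genes. The 36 genes reached 69.4% in siSeh1 and 13.9% in siSCR, 38.9% in iKO and 0 in Ctrl.

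The 2 longer lists shared 13 of these genes. Of the 14 in iKO, 13 were also in siSeh1 (92.9%), and these were 52% of the 25 in siSeh1; 3.19% of all protein-coding genes were in both lists. For all protein-coding genes the overlap was 61.6% of the iKO genes and 26.9% of the siSeh1 genes. Nsdhl was in iKO and not in siSeh1. The 12 in siSeh1 and not in iKO were Pmvk, Lss, Cyp51, Tm7sf2, Hsd17b7, Ebp, Sc5d, Srebf2, Scd1, Scd2, Fads1 and Elovl5. The 9 genes gained in both comparisons were Acat2, Mvk, Mvd, Idi1, Fdft1, Sqle, Stard4, Acly and Fasn (25%, background 2.17%). All 1134 protein-coding genes with an iKO promoter peak counted as gained relative to Ctrl. The Ctrl comparison thus removed none, and the count is of genes gained in siSeh1 and present in iKO. When all 4 lists were reduced to 1154 peaks, 3 of the 36 genes were gained in both, against 0.795% of all protein-coding genes.

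Each peak carries the authors' score, whose scale no source used here gives, so each was read within its list, as a rank among the promoters of that list (in percent, 0 at the top). Scores and ranks of different lists are set side by side as values, since ranks from lists of different length show no change. The 25 genes in siSeh1 had a median rank of 28.8%, between 1.44% and 98.9%, where all protein-coding promoters of that list had 49.2%. Among them 5 lay in the top 10%, 9 in the top 25% and 18 in the top 50%. The 5 in siSCR had a median rank of 44.7%, against 50.4% for all protein-coding promoters there. The 14 in iKO had a median rank of 24.8%, between 2.49% and 93.7%, against 48.6%, with 3 in the top 10%, 7 in the top 25% and 11 in the top 50%.

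**Figure D2:**
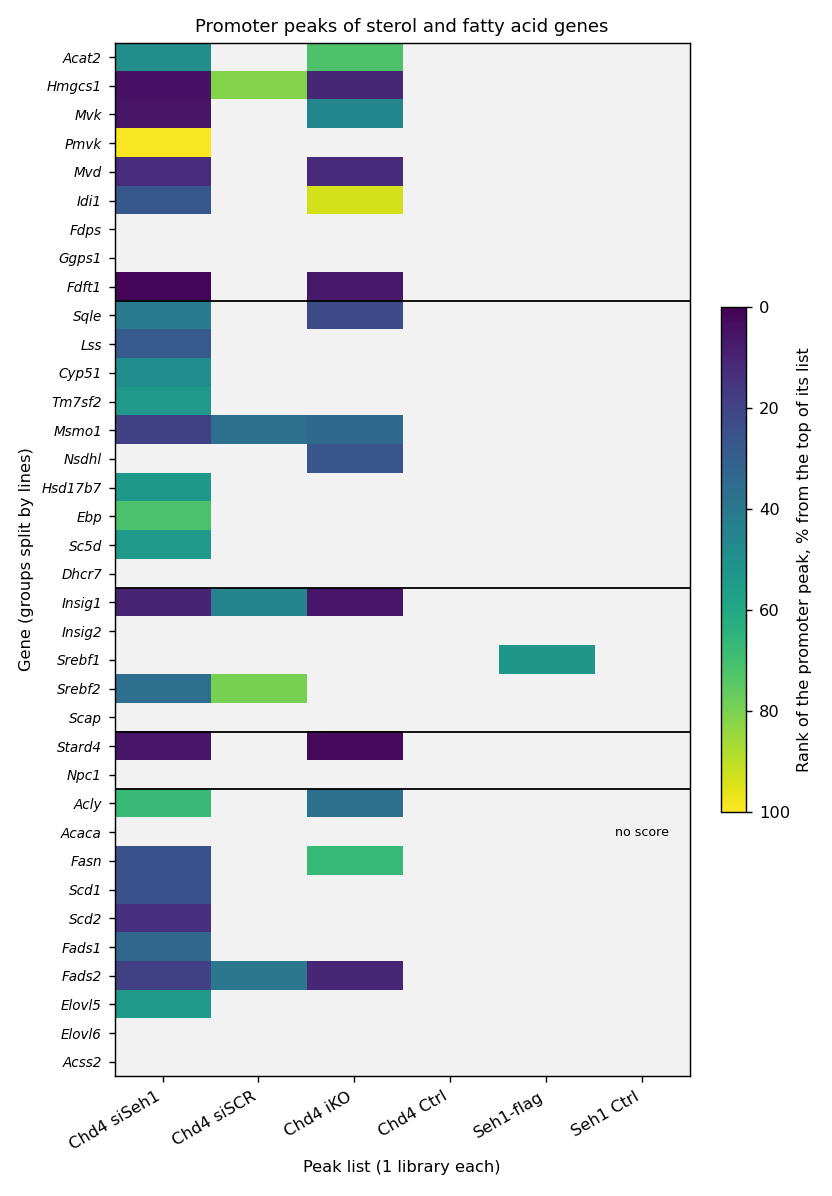
Rank of each gene's promoter peak among the promoter peaks of its list (colour, %, 0 is the highest score), for the 36 genes down the page and the lists across. Pale grey cells have no promoter peak, except the Acaca cell of Seh1 Ctrl, which has a peak with no score; the iKO column is filled for 14 genes and the Ctrl column for 0.

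Of the 9 genes grouped with the steps from acetyl-CoA to squalene, 7 had a promoter peak in siSeh1 against 1 in siSCR. In iKO 6 had one, against 0 in Ctrl. The 9 include Ggps1, which is not itself a step to squalene. For this and the later groups, the shares of all protein-coding genes were 11.8% in siSeh1 against 1.63% in siSCR. They were 5.18% in iKO against 0.0183% in Ctrl. Fdft1, squalene synthase, which commits the pathway to sterols, had the highest score of the group in siSeh1. Its peak at 63178023 on chromosome 14 scored 24.0 and ranked 44.5 of 26935 peaks in siSeh1, and its iKO peak at 63177978 scored 11.3 and ranked 143 of 21294. Fdft1 was in neither siSCR nor Ctrl.

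Hmgcs1, the cytosolic HMG-CoA synthase, had a score of 16.3 in siSeh1 against 3.62 in siSCR, and 9.27 in iKO, with none in Ctrl. Its siSCR peak ranked at 81.6% of the promoters of that list, while its rank was 5.07% in siSeh1 and 10.9% in iKO. Mvk, mevalonate kinase, scored 15.9 in siSeh1, ranking at 5.31%, and 4.89 in iKO, at 46%. Mvk starts 242 bp from the opposite-strand gene Mmab, which makes a cobalamin cofactor, so a peak between them belongs to either promoter. Mvd, mevalonate diphosphate decarboxylase, scored 11.2 in siSeh1 and 8.53 in iKO, and ranked at 12.7% and 12.2% of those lists. Idi1, isopentenyl diphosphate isomerase, scored 7.71 in siSeh1 and 2.71 in iKO, where it stood at 93.7%. Acat2, acetoacetyl-CoA thiolase, scored 5.15 in siSeh1 and 3.79 in iKO. Pmvk, phosphomevalonate kinase, was the weakest of the group, at 2.27 in siSeh1 and a rank of 98.9%, with no peak in the other Chd4 lists. Its summit lies at -407 bp from the start at 89454541 on chromosome 3, and RefSeq has another Pmvk start at 89459571. Fdps and Ggps1, the farnesyl and geranylgeranyl diphosphate synthases, had no Chd4 promoter peak in any list.

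Of the 10 genes from squalene to cholesterol, 8 had a promoter peak in siSeh1 against 1 in siSCR, and 3 in iKO against 0 in Ctrl. Sqle, squalene epoxidase, scored 6.03 in siSeh1 and 6.70 in iKO, with ranks of 40.9% in siSeh1 and 22.8% in iKO. Msmo1, the methylsterol monooxygenase, scored 9.23 in siSeh1 against 5.87 in siSCR, and 5.70 in iKO. Its siSCR rank of 36.7% was the best of the 5 genes of that list. Nsdhl, a sterol dehydrogenase of the demethylation steps, had a single Chd4 promoter peak, in iKO, with a score of 6.49. The start of Nsdhl lies 177 bp from that of the opposite-strand centrin gene Cetn2.

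The other 6 genes of these steps had their promoter peak in siSeh1 alone. Lss, lanosterol synthase, scored 7.38 there, and Cyp51, the lanosterol demethylase, scored 5.32. Tm7sf2, a sterol reductase, and Sc5d, a sterol desaturase, both scored 4.73. Hsd17b7, a keto-sterol reductase, scored 4.77, and its start is 204 bp from the opposite-strand gene 3110045C21Rik. Ebp, the sterol isomerase, scored 3.79 at 504 bp after its start, a position the deposited annotation gives to the end of the neighbouring gene Porcn. It was the farthest from its start of the promoter peaks in the Chd4 lists. The nearest beyond the 1000 bp limit in any list was a Seh1-flag peak 1673 bp after the later of 2 Pmvk starts.

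Of the 5 regulators, 2 had a promoter peak in siSeh1 and the same 2 in siSCR, with 1 in iKO against 0 in Ctrl. Insig1 scored 13.0 in siSeh1 against 5.56 in siSCR, and 11.5 in iKO. It ranked at 9.51% in siSeh1 against 44.7% in siSCR, and at 6.06% in iKO. Srebf2 scored 6.38 in siSeh1 against 3.82 in siSCR and had no peak in iKO or Ctrl. Srebf1, Scap and Insig2 had no Chd4 promoter peak in any list.

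Of the 2 carriers, Stard4, a soluble protein that moves cholesterol between membranes, scored 15.5 in siSeh1, at a rank of 5.62%, and had no peak in siSCR. In iKO it scored 14.8 at a rank of 2.49%, the highest of the group in that list, and it had no peak in Ctrl. Npc1, which exports cholesterol from lysosomes, had no Chd4 promoter peak.

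Of the 10 fatty acid genes, 7 had a promoter peak in siSeh1 against 1 in siSCR, and 3 in iKO against 0 in Ctrl. Fads2, the first desaturase of polyunsaturated fatty acid synthesis, scored 9.23 in siSeh1 against 5.62 in siSCR, and 9.27 in iKO. Fasn, fatty acid synthase, scored 8.14 in siSeh1 and 3.93 in iKO. Acly, which makes cytosolic acetyl-CoA from citrate, scored 4.06 in siSeh1 and 5.59 in iKO. Fasn ranked above Acly in siSeh1, at 25.1% against 67.4%, and below it in iKO, at 66.9% against 37%.

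The stearoyl-CoA desaturases Scd1 and Scd2, which make monounsaturated fatty acids, scored 8.14 and 11.1 in siSeh1. Fads1, a desaturase that works after Fads2, scored 6.92 there, and the elongase Elovl5 scored 4.73. These 4 genes had no promoter peak in siSCR, iKO or Ctrl. Acaca, acetyl-CoA carboxylase, had no Chd4 promoter peak and 3 siSeh1 peaks in its introns. Elovl6, an elongase, and Acss2, an acetyl-CoA synthetase, had no peak in any of the 6 lists.

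The summits lay close to the starts. The median distance was 60 bp upstream in siSeh1 (-60 bp, against -65 bp for all protein-coding promoters) and 86 bp upstream in iKO (-86 bp, against -64 bp). The 5 siSCR summits had a median of -173 bp, against -92.5 bp. Summits were within 250 bp of the start at 20 of 25 genes in siSeh1 (80%, against 76.9% of all protein-coding promoters) and at 12 of 14 in iKO (85.7%, against 75.1%). Idi1 and Acat2 had their summits after the start in both lists, at 213 and 355 bp in siSeh1 and at 192 and 368 bp in iKO.

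At the 13 genes with a promoter peak in both siSeh1 and iKO, the summits of the 2 lists were a median of 61 bp apart, and 10 were within 100 bp (76.9%). All 697 protein-coding promoters compared gave a median of 52 bp and 77.2%. The closest were Acat2 at 13 bp, Insig1 at 19 bp and Idi1 at 21 bp. Fasn was the farthest, at 494 bp, with its siSeh1 summit 287 bp after the start and its iKO summit before it (-207 bp). Acly followed at 186 bp and Mvk at 121 bp.

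**Figure D3:**
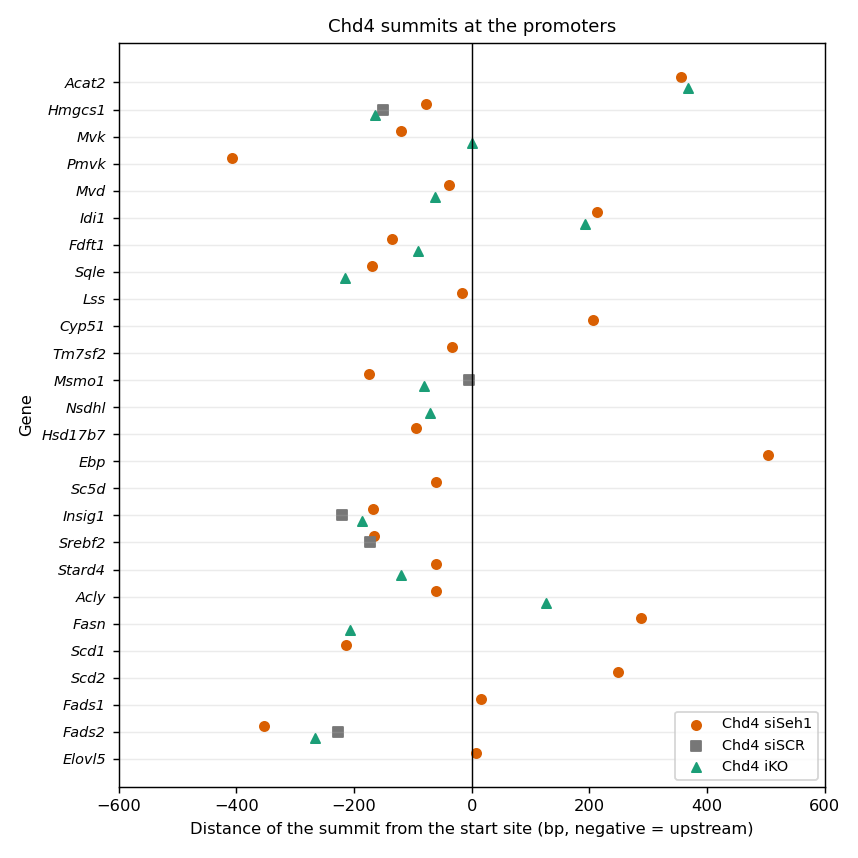
Distance of each Chd4 promoter summit from the start of its gene (x axis, bp, negative is upstream) for the genes down the page, with circles for siSeh1, squares for siSCR and triangles for iKO. Most summits lie within 250 bp of the start, and the Fasn summits of siSeh1 and iKO lie on opposite sides of it.

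RefSeq promoter windows, from 250 bases before to 50 after a start, were found for 28 of the 36 genes; those of Fdps, Fdft1, Sqle, Stard4, Scd1, Scd2, Fads1 and Npc1 were not used here. The sterol element TCACNCCAC, searched on both strands, was in 1 of the 28 (3.57%), against 1.43% of 2514 protein-coding genes with a siSeh1 or iKO promoter peak and 1.41% of all 17492 protein-coding genes with a window. That gene was Hmgcs1, where it lies at bases -137 to -129 from the start, 55 bp from the siSeh1 summit against 18 bp from the siSCR summit, and 31 bp from the iKO summit. With 1 mismatch allowed, 12 of the 28 held it (42.9%), against 30.4% of the genes with a peak and 27% of all. In Srebf2 such a near match, tcaccccat, lies at bases -162 to -154 from the start, 8 bp from the siSeh1 summit against 15 bp from the siSCR summit.

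CCAAT on either strand was in 23 of the 28 (82.1%), against 65.4% of the genes with a siSeh1 or iKO promoter peak and 42.3% of all. GGGCGG, the box read by Sp1, was in 22 (78.6%), against 72.7% and 49.2%. The E-box CACGTG was in 6 (21.4%), against 10.8% and 8.91%. The median G and C content of the windows was 61.8% for the 28 genes, 62% for the genes with a peak and 56.3% for all. Of the 20 matched genes with a siSeh1 or iKO promoter peak 18 held CCAAT (90%), and of the 8 without one 5 did (62.5%). The 20 genes had 21 windows and the 8 had 15, and a match in any window counted. Dhcr7 is among these 5, though it had Chd4 peaks near another RefSeq start, as given below.

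At the 12 genes whose siSeh1 summit fell inside the window, all 12 windows held CCAAT, and the nearest box was a median of 28 bp from the summit, between 2 and 99 bp. Protein-coding promoters of the siSeh1 list held it at 75.5%, with a median of 23 bp. In iKO all 7 such genes held it, at a median of 13 bp, against 85% and 21 bp. A match is a run of letters and not a measured binding site.

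**Figure D4:**
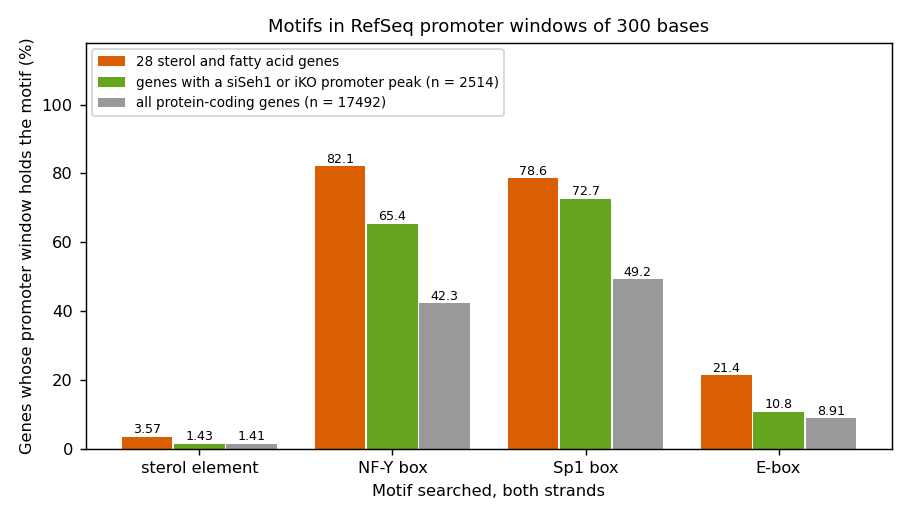
Share of genes whose RefSeq promoter window holds each motif on either strand (y axis, %), for the 28 matched sterol and fatty acid genes, the 2514 genes with a siSeh1 or iKO promoter peak and all 17492 protein-coding genes with a window. The NF-Y box (CCAAT) stood at 82.1%, 65.4% and 42.3% in these 3 sets, and the sterol element (TCACNCCAC) at 3.57%, 1.43% and 1.41%.

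A list of 60 other sterol and lipid genes, which the choice of the 36 had left out, had promoter peaks at 20 genes in siSeh1 (33.3%, against 11.8% of all protein-coding genes) and at 4 in siSCR (6.67%, against 1.63%). In iKO there were 9 (15%, against 5.18%) and in Ctrl 0 (against 0.0183%). In siSeh1 16 of the 60 were gained relative to siSCR (26.7%, against 10.5%) and 0 were lost. All protein-coding genes had the same order of lists. The 60 genes were also chosen with earlier results of these data known, and no count at equal list length is given for them. Nothing is read from their distance to the background. The 20 in siSeh1 include Nfya, Nfyb and Nfyc, subunits of NF-Y, and Sp1. Nfyb scored 5.41 in siSeh1, at a rank of 46.5%, and was in no other Chd4 list. Nfya scored 21.9 in siSeh1 against 6.5 in siSCR, and 14.8 in iKO, at ranks of 1.96%, 31.8% and 2.49%. Sp1 scored 14.2 in siSeh1 against 2.24 in siSCR, and 16.6 in iKO. Its siSCR rank was 99.7%, near the bottom of that list, against 7.25% in siSeh1 and 1.61% in iKO. Nfyc scored 10.9 in siSeh1 and 2.30 in iKO, at ranks of 14.2% and 98.5%, and was in neither control list.

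Osbp, an oxysterol-binding lipid transporter, scored 21.1 in siSeh1 against 4.33 in siSCR, and 7 in iKO. Hsd17b12, a ketoacyl-CoA reductase of fatty acid elongation, scored 16.7 in siSeh1 against 6.81 in siSCR, and 7.06 in iKO. Tmem97, a binding partner of NPC1, Acsl3, an acyl-CoA synthetase, and Nus1, a subunit of the enzyme that makes dolichol precursors, were in siSeh1 and iKO and in neither control list. In siSeh1 they scored 16.5, 7.38 and 7.84, and in iKO 7.42, 6.55 and 5.79.

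Dhcr7, the reductase of the last step to cholesterol, had no promoter peak by the deposited start. Its siSeh1 peak at 143830118 on chromosome 7 scored 11.7 and ranked 386.5 of 26935, and its iKO peak at 143830140 scored 6.76 and ranked 493.5 of 21294. These positions are 6951 and 6973 bp after the deposited start, in intron 1 of 8 and in a 5′ UTR exon, and from another RefSeq start of Dhcr7 they lie upstream at -96 and -74 bp. Neither siSCR nor Ctrl listed a peak at Dhcr7. Measured to any RefSeq start, a choice made after these peaks were seen, the count became 26 of the 36 genes in siSeh1 and 15 in iKO. The share of all protein-coding genes was not computed by this rule, so nothing is read from the rise.

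Exon peaks were counted by the annotation as deposited, where UTRs are classed apart. By Gene Name, 1 of the 36 genes had a peak annotated to an exon in iKO, against 0 in Ctrl, and 0 had one in siSeh1, against 0 in siSCR. The shares of all protein-coding genes were 1.48% in iKO, 0.0137% in Ctrl, 2.01% in siSeh1 and 0.155% in siSCR. Both Seh1 lists also gave 0, with 0.26% of all protein-coding genes in Seh1-flag and 0.863% in Seh1 Ctrl. The iKO peak, at 4060300 on chromosome 5, is named for Cyp51 but lies in exon 37 of 48 of its neighbour Akap9. With UTRs included, the counts by Gene Name were 6 in iKO and 4 in siSeh1. The share of all protein-coding genes was not computed by this rule. The iKO genes include Cyp51, by the Akap9 peak, and Stard4, by a peak in the 3′ UTR of its neighbour Camk4. By the gene's own transcript, promoter peaks included, they were 4 in iKO (Idi1, Dhcr7, Acly and Scd1; 2.56% of all protein-coding genes) and 4 in siSeh1 (Idi1, Cyp51, Fasn and Scd2; 3.53%), with 0 in siSCR and Ctrl. A peak in the 3′ UTR of its own transcript was listed for 1 of the 36 genes, Scd1, in iKO (0.836% of all protein-coding genes), against 0 in Ctrl (0.032%). The other lists had 0, with backgrounds of 1.02% in siSeh1, 0.0594% in siSCR, 0.753% in Seh1-flag and 0.612% in Seh1 Ctrl. Scd1 had 3 such iKO peaks, all in exon 6 of 6, with scores of 6.55, 4.10 and 3.39. It had no promoter peak in iKO, and its iKO peaks between genes scored 3.44 and 3.17. Its siSeh1 peaks were 1 at the promoter and 4 between genes.

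Exon and UTR peaks in the iKO list were also present at genes that liver makes in bulk. Of 20 liver markers, 11 had one in iKO against 0 in Ctrl, and 1 had one in siSeh1 against 0 in siSCR; both Seh1 lists had 0. They include the fibrinogen chain genes Fga, Fgb and Fgg and the complement gene C3, which was also the siSeh1 one. Over all protein-coding genes 2.56% had such a peak in iKO against 0.0502% in Ctrl, and 3.53% in siSeh1 against 0.242% in siSCR. The liver markers were also chosen with earlier results of these data known, so nothing is read from their distance to these shares. Scd1 is also abundant in liver; the part of these liver genes' signal in the Scd1 peaks was not tested.

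**Figure D5:**
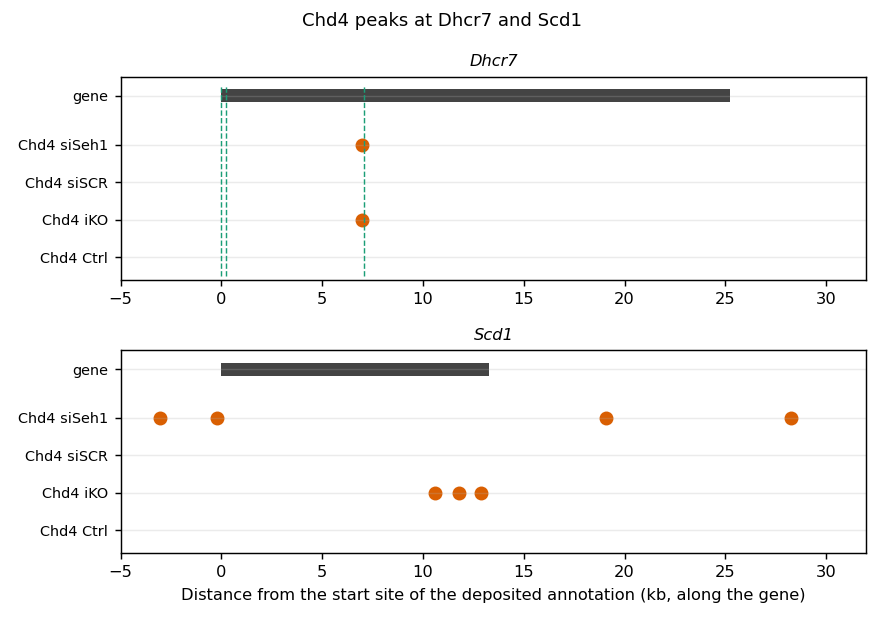
Chd4 peaks (dots) along Dhcr7 and Scd1, as distance from the start used by the deposited annotation (x axis, kb), with 1 row for each list; bars show the RefSeq genes and dashed lines the RefSeq starts where a promoter window was given. Both Dhcr7 peaks lie at its later start, and within the bars the iKO peaks of Scd1 lie near the end of the gene, where siSeh1 has none.

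Away from promoters and the genes themselves, the Chd4 lists held scattered peaks. Of the 45 siSeh1 peaks assigned to the 36 genes 25 were at promoters (55.6%, against 10.4% of all peaks of the list), 6 lay within the gene, 3 within another gene and 11 between genes. The 5 siSCR peaks were all at promoters (100%, against 15%). Of the 30 iKO peaks 14 were at promoters (46.7%, against 5.95%), 7 within the gene, 2 within another gene and 7 between genes. Elovl5 had 4 peaks away from its promoter in siSeh1 and 3 in iKO, with scores of 5.41 or lower. Those in siSeh1 scored 4.34 to 5.41, against 4.73 at its promoter, and include an Elovl5 intron.

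The Seh1 lists held few promoters of any kind. Seh1-flag held a promoter peak at 1 of the 36 genes (2.78%), Srebf1, with a score of 4.65 at 5 bp before the start, where the list's median score was also 4.65; 1.33% of all protein-coding genes had one. Seh1 Ctrl held 1 (2.78%), at 488 bp after the start of Acaca, against 1.02% of all protein-coding genes. Its entries all carry a score of 0 and span 240 to 1296 bp, while the other lists give single-base summits, so the 2 Seh1 lists were not compared with each other. Neither Srebf1 nor Acaca had a Chd4 promoter peak.

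Other Seh1 peaks named for these genes were mostly distant or inside neighbours. Of 23 in Seh1-flag 1 was at a promoter (4.35%, against 1.53% of all peaks), 2 lay within the gene, 8 in another gene and 12 between genes. The 4 Seh1-flag peaks named for Fasn lie in its neighbour Ccdc57. Fdps had 3 Seh1-flag peaks, the nearest upstream of its start at -2212 bp. Of 17 in Seh1 Ctrl 1 was at a promoter (5.88%, against 1.35%), and those at Hmgcs1 and Sqle include introns of these genes.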

How the data were processed

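Peak lists of 6 libraries, 1 list each, were analysed; the members and lists of genes were chosen with earlier results of these data known. Per the file headers, the authors annotated the deposited peaks with HOMER on mm10, giving each a score, a Gene Name and a distance to the start. The submitters' processing notes name Bowtie2 and HOMER, with no version, and list human builds beside them. How peaks were called (program, threshold, input, pooling) is not given in the sources used. The lists hold peaks above a minimum, so depth is unknown and no intervals are reported. Intervals of 95% over genes were computed only to sort alternative medians into close or moved.

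A gene was counted when a peak lay within 1000 bp of its start; where several did, the highest score stood for it. Scores were ranked within a list, ties sharing their mean rank. Gained and lost mean presence in 1 list of a pair only. Genes were matched by Entrez ID to RefSeq GRCm38.p6 (18861 of 18892 IDs, 99.8%), of which 21900 protein-coding genes formed the background. Motifs were searched in RefSeq promoter windows of 300 bases. Python 3.11.15, pandas 2.3.3 and matplotlib 3.10.9 were used, and the counting was tested on simulated lists. All 36 genes are named. Of 60 other pathway genes, those with a promoter peak in at least 2 Chd4 lists are, at most 8 by mean rank in siSeh1 and iKO. Nfyb was named beside them as a subunit of NF-Y. Alternatives were windows of 500 and 2000 bp, promoters by annotation, scores of at least 5, lists of equal length, other exon rules, the nearest peak, ranks among all peaks and other motif settings.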

Additional observations from a re-analysis of the deposited data

Results flagged for a closer look

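Chd4 peaks turned up at some of the 36 genes outside the promoter count. Dhcr7 had 1 peak at another RefSeq start in siSeh1, against 0 in siSCR. It had 1 such peak in iKO, against 0 in Ctrl, and the deposited annotation places that same iKO peak in an exon, which makes 1 exon or UTR peak away from the promoter. Scd1 had 3 exon or UTR peaks away from the promoter in iKO, against 0 in Ctrl. Each value comes from 1 library, and the Ctrl list is short, so peaks below its threshold cannot be told apart from peaks that were absent.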

How the results depend on the processing

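Over 27 results and 96 alternative values, 76 stayed close to the reported value, 20 moved and 0 changed sign. Only the signed distances to the start could change sign, so the 0 says nothing of the counts. The limit for a close count was wide. Falls from 25 to 18 promoter genes in siSeh1 and from 14 to 10 in iKO, with scores of at least 5, were called close. So was a fall from 20 to 14 gained in siSeh1 with promoters by annotation. Medians were called close inside a 95% interval over genes, not samples. With scores of at least 5, promoter genes became 3 in siSCR and 0 in Seh1-flag, genes gained in both comparisons 5 and exon genes in iKO 0. A 2000 bp window gave 2 in Seh1-flag. Promoters by annotation gave 0 in Seh1 Ctrl and 5 gained in both. At equal list length 13 were gained in siSeh1 and 3 in both. Exon or UTR annotation by Gene Name gave 4 genes in siSeh1, 6 in iKO and 1 in Seh1 Ctrl, with no background computed. Genes by transcript gave 0 exon genes in iKO. Ranked among all peaks, the medians were 3.56% in siSeh1 and 13.2% in siSCR, 2.56% in iKO, and 51.1% in Seh1-flag, which had 53.1% within 500 bp. TCACNCCAC with 1 mismatch gave 12 genes, and CCAAT on the gene's strand alone gave 12. The cause of these shifts was not tested beyond the construction of each alternative. Using any RefSeq start, and siSCR in place of Ctrl for iKO (10 gained), were choices made after seeing the data. Except at equal list length, no share of all protein-coding genes is given for the promoter and gained counts under the alternatives. Whether those counts changed with all genes or apart from them was therefore not tested. The Chd4 Ctrl median rank could not be given, since no gene of the 36 was in that list. No paired analysis was possible because each group has 1 library. The lists carry no depth, so an unlisted promoter is not shown to be unbound.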
